A study of Mus musculus with 20 samples.

Results

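The 10 genes described here belong to the canonical WNT pathway: the transcription factor genes Cdx1, Lef1, Tcf7 and Sp5, the feedback inhibitor genes Axin2, Notum, Nkd1, Znrf3 and Rnf43, and the ligand gene Wnt7b. They were taken as a fixed list of mouse symbols, chosen with earlier results of these data known. All 10 matched an Ensembl identifier among the 30265 genes counted in each of both experiments. Polyadenylated RNA had been sequenced from 20 libraries. 4 came from embryonic stem cells (ESCs) derived from C57BL/6J mice and kept with LIF on irradiated fibroblast feeders, of which 2 overexpressed Klf5, which encodes a zinc-finger factor of the Krüppel-like family, and 2 overexpressed green fluorescent protein (GFP) in its place. 16 came from single E4.5 embryos, the late blastocyst stage, labelled as C57BL/5J and cultured in KSOM medium, of which 6 had received a small interfering RNA (siRNA) against Klf5 and 10 a scramble siRNA. The sources used here give neither the promoter that drove the overexpression nor whether ESC replicates were separate cultures. The p-values in ESCs therefore cover the spread among these samples alone, and that spread may be technical. The first comparison asks which transcripts differ when Klf5 is raised, and the second which differ when it is lowered.

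In canonical WNT signalling a secreted WNT protein binds a Frizzled receptor and an LRP co-receptor, a cytoplasmic complex built on Axin then stops degrading beta-catenin, and beta-catenin enters the nucleus and joins a TCF or LEF factor on its target genes. Many targets encode brakes on the pathway, so their transcripts are often read as a gauge of its activity. In mouse ESCs this pathway is known for supporting self-renewal, and caudal-type homeobox genes are among its targets in the posterior embryo.

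Totals ran from 26.8 to 37.5 (in 1e6 counts) in ESCs and from 14.7 to 24.9 in embryos. A count of 0 allows up to 3 counts, for counting error only. On unscaled totals that is 0.0800 to 0.112 CPM (counts per 1e6 counts) in an ESC library and 0.120 to 0.204 in an embryo. All other CPM use scaled library sizes, on which these limits shift. In Klf5 siRNA embryo 5, 3 counts are 0.170 CPM unscaled and 0.202 CPM scaled. Klf5 transcript stood at 80.5 and 70.8 CPM in GFP cells and at 942 and 882 CPM in Klf5 cells. In scramble embryos it ranged from 382 to 592 CPM. Klf5 siRNA embryos 1 to 6 held 543, 111, 195, 80.8, 117 and 292 CPM, so that the embryo labelled Klf5 siRNA 1 lay within the range of the controls and goes against its label. The group mean was lower all the same (log2 fold change −1.07 ± 0.33 SE, edgeR adjusted p = 0.0273). This call was lost when any 1 of Klf5 siRNA embryos 2 to 5, those with the least Klf5 transcript, was left out (adjusted p from 0.0509 to 0.0672). Without the embryo labelled Klf5 siRNA 1 the log2 fold change was −1.56 (edgeR adjusted p = 0.00130). The call held in 18 of 27 alternatives, and was also lost with an offset for transcript length (−0.81, adjusted p = 0.0866). Library numbers run lower in every scramble embryo than in any Klf5 siRNA embryo, so the effect of order and that of the siRNA cannot be told apart. The mitochondrial share of counts was 5.02 ± 2.78% (SD, n = 6) in Klf5 siRNA embryos and 12.1 ± 4.84% (n = 10) in scramble embryos (exact two-sided permutation p = 0.00724, adjusted over 4 library measures 0.0145). Ribosomal protein transcripts took 10.4 ± 2.26% and 6.62 ± 1.61% (exact p = 0.00125, adjusted 0.00500), while total counts (exact p = 0.964) and genes with a count (0.258) did not pass.

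The RefSeq promoter table (GRCm38.p6) matched 6 of the 10 genes, Axin2, Lef1, Tcf7, Sp5, Nkd1 and Rnf43, with 11 start sites in all. The other 4 are Cdx1, Notum, Znrf3 and Wnt7b. The 250 bases before each start were searched on both strands for CTTTGA, the core bound by TCF and LEF factors, and for CCNCNCCC, a GC-box pattern of the kind bound by Krüppel-like and Sp factors. Matches of one pattern may overlap each other. CTTTGA occurred before 2 of the 11 starts and in 13.8% of all 32851 promoters of the table, and CCNCNCCC before 9 of the 11 and in 45.9% of all. The 11 windows are not distinct, since 4 are of Lef1 and 2 of these overlap for most of their length. 3 of these windows, none of which overlaps an annotated exon, are shown. In ESCs the fitted level with Klf5 was higher for the feedback and target genes Axin2 and Sp5 and lower for Rnf43. None of the 3 differences passed the threshold of 0.05 (edgeR adjusted p = 0.0867, 0.390 and 0.0973). The windows run 5′ to 3′ on the plus strand, with matches of either pattern in capitals. The Axin2 window is chr11:108920099-108920348, that of Sp5 is chr2:70474673-70474922, and that of Rnf43 lies before the downstream of its 2 starts, chr11:87699647-87699896. The window before the other Rnf43 start, which overlaps an annotated exon, holds no match of either pattern.
Axin2: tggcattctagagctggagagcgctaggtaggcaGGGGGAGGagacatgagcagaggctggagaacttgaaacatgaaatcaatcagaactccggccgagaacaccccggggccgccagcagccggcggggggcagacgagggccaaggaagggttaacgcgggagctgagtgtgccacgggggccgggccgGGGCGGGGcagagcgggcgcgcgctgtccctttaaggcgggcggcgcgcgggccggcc
Sp5: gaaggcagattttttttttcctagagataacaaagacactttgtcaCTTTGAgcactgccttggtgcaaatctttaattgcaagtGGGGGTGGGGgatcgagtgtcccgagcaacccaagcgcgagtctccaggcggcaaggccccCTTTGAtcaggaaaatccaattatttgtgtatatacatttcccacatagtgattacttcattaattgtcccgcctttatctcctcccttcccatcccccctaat
Rnf43: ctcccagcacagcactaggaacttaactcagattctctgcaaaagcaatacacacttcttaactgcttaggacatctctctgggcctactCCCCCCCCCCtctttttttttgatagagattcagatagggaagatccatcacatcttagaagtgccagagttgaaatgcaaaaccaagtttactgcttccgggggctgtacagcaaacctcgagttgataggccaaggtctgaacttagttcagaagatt
In the Sp5 window CTTTGA began 204 and 104 bases before the start, and the GC-box pattern 165 and 163 bases before it. Axin2 held 2 matches of the GC-box pattern, 216 and 58 bases before the start, and no CTTTGA. The 3 matches before Rnf43 overlap within a single run of C. A match is a run of letters and not a measured binding site.

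In control cells the pathway genes differed in level by more than an order of magnitude. On the scale of CPM per kilobase of the longest annotated transcript, GFP ESCs had the most of Tcf7, encoding a TCF factor, at 35.9 ± 3.59 (SD, n = 2), followed by Wnt7b at 9.15 ± 1.57. Cdx1 (4.08 ± 0.950), Lef1 (3.63 ± 1.80), Rnf43 (2.86 ± 0.724) and Axin2 (2.79 ± 0.0272) came next, and in this order each range overlapped that of the gene after it down to Axin2. Znrf3 (2.29 ± 0.0696) and Notum (2.15 ± 0.474) also overlapped each other, as did Nkd1 (0.839 ± 0.0684) and Sp5 (0.800 ± 0.128) at the bottom. The order was another one in scramble embryos. Wnt7b was the highest on the same scale, at 11.4 ± 10.9 (n = 10), and Znrf3 (0.910 ± 0.327), Cdx1 (0.733 ± 0.481), Axin2 (0.686 ± 0.478), Tcf7 (0.324 ± 0.295) and Lef1 (0.133 ± 0.0615) followed, each with a range that overlapped the next. Nkd1, Rnf43, Notum and Sp5 were at or near 0. Both experiments used different library kits and starting material, so these levels are set side by side and were not tested against each other.

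**Figure D1:**
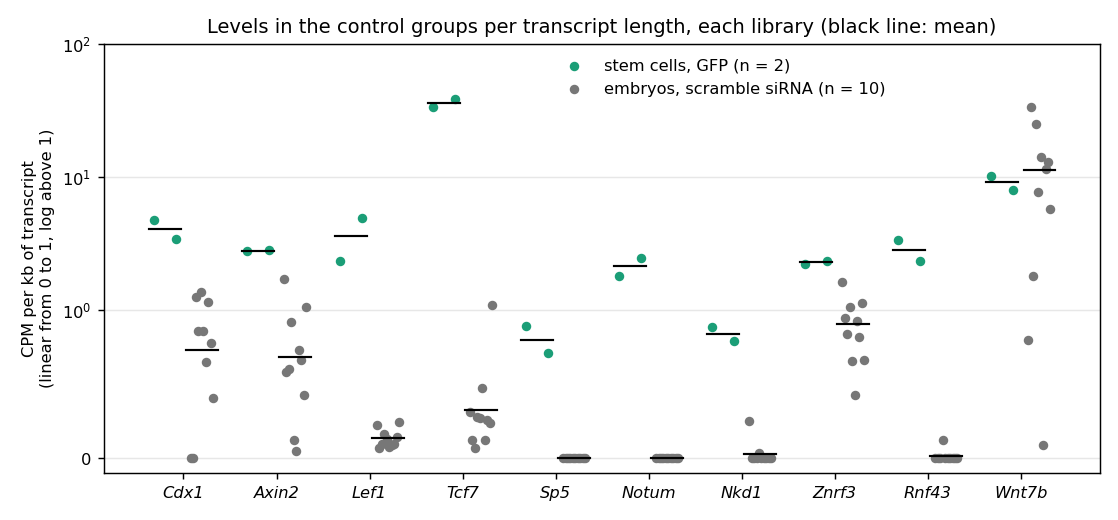
Level of each gene in CPM per kilobase of transcript (vertical axis, linear from 0 to 1 and logarithmic above 1) in the 2 GFP ESC libraries and the 10 scramble embryos; dots are libraries and black lines are means. Tcf7 is the highest gene in ESCs at 35.9 and Wnt7b in embryos at 11.4, where Sp5 and Notum are at 0 in all 10.

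Cdx1 was the 1 gene of the 10 that passed the threshold in ESCs. Cdx1 (ENSMUSG00000024619), encoding a caudal-type homeobox factor, was measured at 8.31 and 5.96 CPM in GFP 1 and 2 and at 24.6 and 26.1 CPM in Klf5 1 and 2. Both Klf5 libraries were thus high, close to each other and clear of the GFP range. The transcript rose 3.57-fold (1.84 ± 0.20 SE on the log2 scale, adjusted p = 0.0285 in the quasi-likelihood test of edgeR). No other member was called higher and none lower. Of all 15968 genes tested 1.67% were called higher, 1.11% lower and 2.78% in either direction. The call rested on library GFP 1, without which the log2 fold change was 2.09 and the edgeR adjusted p 0.119. Here and below, leaving out an ESC library leaves 1 library in its group, which is assumed to vary as the 2 of the other group do. The other caudal-type genes were scarce in ESCs: Cdx2, also a trophectoderm factor gene, stood at 1.43 and 0.948 CPM in GFP and 0.925 and 1.49 CPM in Klf5 libraries, and Cdx4 at 0.398 and 0.271 against 0.190 and 0.186 CPM, too low to be tested.

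Among the 5 feedback inhibitors, 4 had a higher and 1 a lower fitted level with Klf5, and none passed. Axin2 (ENSMUSG00000000142, chromosome 11, 108920349 to 108950783, GRCm38) encodes a scaffold of the beta-catenin destruction complex. It was at 11.8 and 12.0 CPM in GFP and at 23.1 and 16.4 CPM in Klf5 libraries. The groups did not overlap, but the Klf5 libraries lay far apart (1.66-fold, edgeR adjusted p = 0.0867). Notum, a secreted enzyme that strips the lipid from WNT proteins, gave 4.02 and 5.50 against 11.2 and 7.27 CPM (1.93-fold, adjusted p = 0.107). Klf5 1 was again the higher of the Klf5 libraries. Nkd1, encoding a Dishevelled-binding antagonist, gave 3.62 and 3.22 against 4.60 and 3.67 CPM (adjusted p = 0.536), a gap between the groups of less than the spread of either.

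Znrf3 and Rnf43 encode related membrane ubiquitin ligases that remove Frizzled receptors from the cell surface, and their fitted levels differed in sign. Znrf3 (chromosome 11, 5276324 to 5444847) stood at 14.1 and 14.7 CPM in GFP and 20.0 and 18.6 CPM in Klf5 libraries (log2 fold change 0.42 ± 0.14 SE, edgeR adjusted p = 0.145). Rnf43 (chromosome 11, 87662722 to 87735539) stood at 14.5 and 10.1 CPM in GFP and 3.92 and 6.98 CPM in Klf5 libraries (log2 fold change −1.17 ± 0.32 SE, adjusted p = 0.0973). For both genes the groups did not overlap, and neither passed the threshold. The difference between them was not tested.

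Of the other transcription factor genes none passed. Tcf7 was at 82.5 and 95.03 CPM in GFP and 76.3 and 80.2 CPM in Klf5 libraries (log2 fold change −0.18, edgeR adjusted p = 0.395). Lef1 was the 1 gene whose groups overlapped, with 8.19 and 17.1 against 17.3 and 12.6 CPM (adjusted p = 0.738). The GFP libraries alone differed from each other by more than the group means did. Sp5, encoding a factor of the same zinc-finger superfamily as Klf5, was counted at 1.87 and 1.49 against 2.31 and 2.24 CPM (adjusted p = 0.390).

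Wnt7b (ENSMUSG00000022382, chromosome 15, 85535437 to 85582473), the ligand, had the lowest fold of the 10 in ESCs. Its values were 34.9 and 27.3 CPM in GFP and 7.10 and 13.6 CPM in Klf5 libraries. Both Klf5 libraries lay well under both GFP libraries, yet the gene missed the threshold (log2 fold change −1.58 ± 0.32 SE, edgeR adjusted p = 0.0662). With 1 Klf5 library left, so that the spread came from the GFP libraries alone, it passed without Klf5 1 (−1.19, adjusted p = 0.0215) and without Klf5 2 (−2.12, adjusted p = 0.00558). Under the same limit Axin2 (adjusted p = 0.0229), Notum (0.0367) and Rnf43 (0.0242) passed without Klf5 2, and none of these 3 without Klf5 1.

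**Figure D2:**
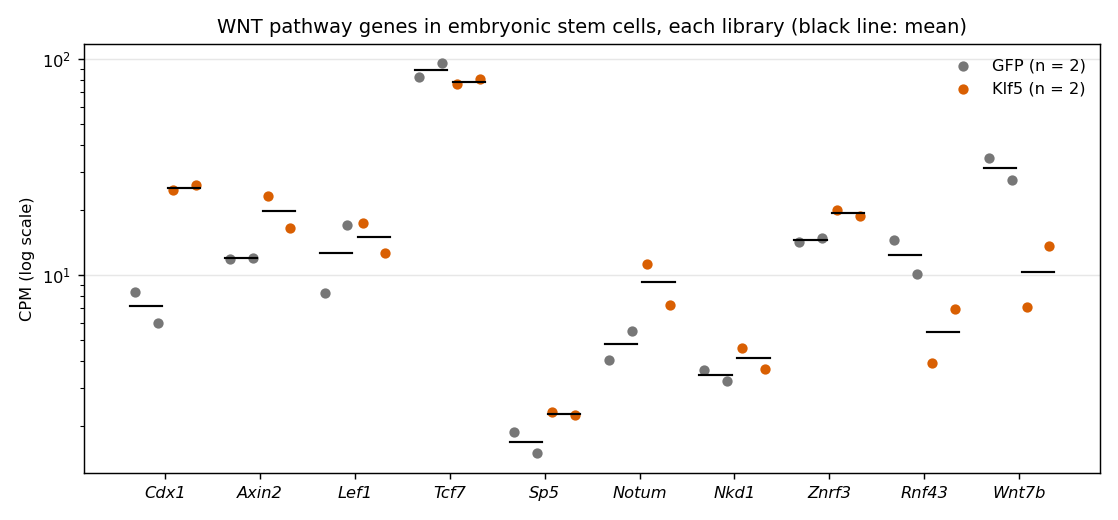
CPM of each gene on a logarithmic axis in the 2 GFP and 2 Klf5 ESC libraries; dots are libraries and black lines are means. Cdx1 lies at 24.6 and 26.1 CPM with Klf5 against 8.31 and 5.96 CPM, Wnt7b and Rnf43 lie lower with Klf5, and Lef1 overlaps.

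As a list the 10 genes were spread to both sides in ESCs. 7 had a log2 fold change above 0 and 3 below, with a median of 0.35, beside a median of −0.002 over all genes tested. The groups did not overlap for 9 of 10, 6 higher and 3 lower, against 56.4% of all genes tested in either direction, 28.9% higher and 27.4% lower. An unadjusted edgeR p below 0.05 was reached by 6 of 10, and by 23.2% of all genes tested. The list was chosen with earlier results of these data known, so these shares describe it and are no test of it. Markers of other cell types were read as well, and the calls among them were mostly of primitive endoderm. Of 10 primitive endoderm markers 4 rose and none fell, namely Sox7, Hnf4a, Dab2 and Cubn, and their summed level was 204 and 146 CPM in GFP against 399 and 947 CPM in Klf5 libraries. Trophectoderm markers summed to 1893 and 913 against 319 and 684 CPM, but 0 of 10 passed, with 4 log2 fold changes above 0 and 6 below. Mesendoderm markers (0 of 7 tested passed) summed to 17.9 and 16.7 against 28.2 and 38.0 CPM. The mesendoderm list shares Eomes with the trophectoderm list and Foxa2 with that of primitive endoderm. Fibroblast markers, which the feeders express, summed to 1990 and 2073 against 2254 and 2361 CPM, with Col1a2 the 1 of 13 tested that rose. Pluripotency markers were high throughout, at 5493 and 5525 against 6769 and 6188 CPM, and none of the marker lists had a gene at 0 in every ESC library. The part of these cell types in the levels of the 10 genes was not tested.

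Of the other 108 WNT pathway genes 99 were tested in ESCs. 3 rose and 1 fell, beside 1.67% of all genes called higher and 1.11% lower, and the median log2 fold change was 0.05. DESeq2 called 12. Wnt6, encoding another ligand, rose 2.86-fold from 4.53 and 3.93 CPM to 8.89 and 15.3 CPM (edgeR adjusted p = 0.0468), the only call among 17 tested genes for ligands and their secretion. Tbx3, a T-box factor gene linked to naive pluripotency, rose 2.14-fold from 165 and 155 CPM to 372 and 314 CPM (adjusted p = 0.0285), 1 of 11 tested further targets. Dact2, a Dishevelled-binding protein gene, rose 1.83-fold from 32.0 and 38.1 CPM to 70.9 and 57.2 CPM (adjusted p = 0.0412), 1 of 21 cytoplasmic components. The gene that fell, Tmem131l, 1 of 14 tested inhibitors, went from 90.7 and 88.1 CPM to 50.7 and 51.6 CPM (adjusted p = 0.0295). All 4 of these calls were lost without GFP 1 and without GFP 2, with 1 GFP library left. The log2 fold changes were then 1.62 and 1.41 for Wnt6, 1.15 and 1.05 for Tbx3, 0.75 and 1.00 for Dact2 and −0.79 and −0.83 for Tmem131l, and the call of Dact2 was also lost without Klf5 1 (adjusted p = 0.0507). None passed among 22 tested genes for receptors and R-spondins, where Fzd10, a Frizzled receptor gene, had the smallest p (9.74 and 9.97 against 18.8 and 15.8 CPM, adjusted p = 0.0539), nor among 14 nuclear factors. Ctnnb1, encoding beta-catenin itself, had a log2 fold change of 0.05 (adjusted p = 0.810). T, the Brachyury gene and a classical target, stood at 0.795 and 0.759 CPM in GFP and 1.66 and 1.57 CPM in Klf5 libraries (adjusted p = 0.118).

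**Figure D3:**
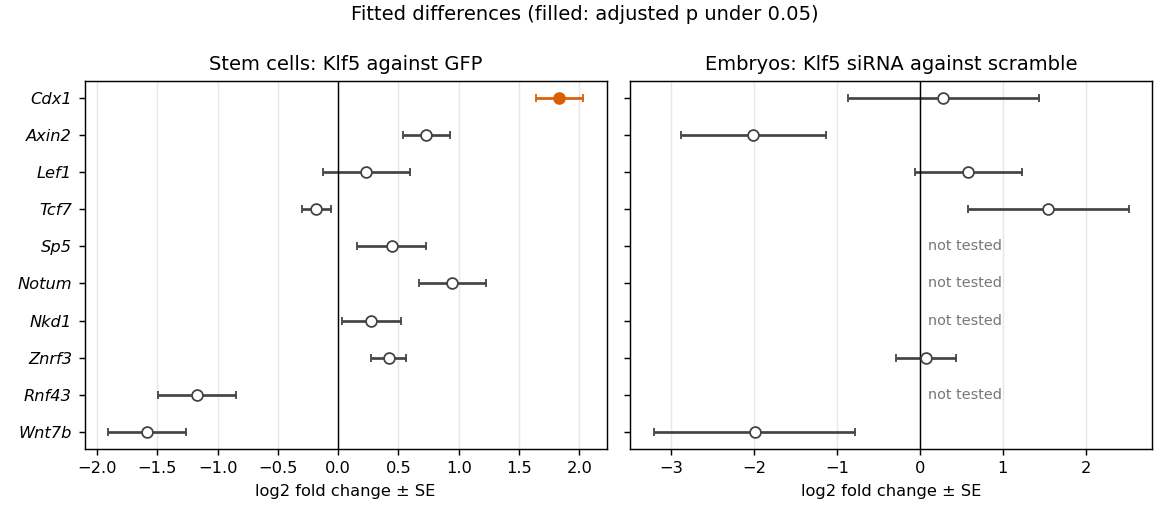
Fitted log2 fold change ± SE of each gene, for Klf5 over GFP in ESCs (left) and for Klf5 over scramble siRNA in embryos (right), on different horizontal scales. Cdx1 in ESCs, at 1.84, is the 1 filled point, the only one with an adjusted p under 0.05, and 4 genes were not tested in embryos.

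In embryos none of the 10 genes passed the threshold. 6 were tested, and 4, Sp5, Notum, Nkd1 and Rnf43, had too few counts. Beside this 0 of 6 stood 19.8% of 12385 genes called, 12.0% higher and 7.74% lower, and 1 of the 6 had an unadjusted edgeR p below 0.05 against 33.2% of all genes. For all 6 the groups overlapped, whereas they did not for 4.81% of all genes tested, 2.91% higher and 1.91% lower. In libraries of whole embryos, fewer cells of a type and less RNA per cell cannot be told apart.

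Axin2 had the smallest p of the 6. Scramble embryos held from 0.196 to 7.30 CPM with a median of 2.71, and Klf5 siRNA embryos 1 to 6 held 2.06, 0.291, 0.692, 0, 0.202 and 1.12 CPM. All 6 Klf5 siRNA embryos lay below the median of the controls, but scramble embryos 5 and 6, at 0.513 and 0.196 CPM, reached down among them (log2 fold change −2.01 ± 0.87 SE, edgeR adjusted p = 0.112). The fitted difference was close to 0 with the mitochondrial percent as a covariate (−0.17, adjusted p = 0.944), and it passed in DESeq2 (−2.02, adjusted p = 0.0319). Without the embryo labelled Klf5 siRNA 1 it was −2.64 (edgeR adjusted p = 0.0595). The mitochondrial percent differed between the groups, so a fit with it cannot tell its part from that of the siRNA.

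Wnt7b spanned the widest range of CPM of the 10 genes. Scramble embryos ran from 0.304 CPM (embryo 7) to 115 CPM (embryo 2), with a median of 32.7. Klf5 siRNA embryos 1 to 6 held 38.0, 0, 0.432, 0.0560, 0.202 and 20.0 CPM. Thus 4 of the 6 held 0 to 10 counts, and the other two lay amid the controls (log2 fold change −1.99 ± 1.21 SE, edgeR adjusted p = 0.264; −3.23 and 0.108 without the embryo labelled Klf5 siRNA 1). Those with Wnt7b, embryos 1 and 6, were also the ones with the most Klf5 transcript, 543 and 292 CPM, while scramble embryo 7 had little Wnt7b with 517 CPM of Klf5. Trophectoderm markers, of which 7 of 10 fell beside 7.74% of all genes tested, summed to 2360 and 2466 CPM in Klf5 siRNA embryos 1 and 6. The sums were between 225 and 1034 CPM in the other Klf5 siRNA embryos and between 2250 and 8569 CPM in scramble embryos. Scramble embryos 1, 3 and 7, those with the least Wnt7b (2.73, 6.11 and 0.304 CPM), had sums of 3072.5, 3333 and 3232 CPM. Primitive endoderm markers, of which 2 of 10 fell, summed to between 386 and 700 CPM in scramble and between 241 and 505 CPM in Klf5 siRNA embryos, and pluripotency markers, of which 0 of 8 passed, to between 3662 and 11893 against 6376 and 17170 CPM. Mesendoderm markers, of which 1 of 3 tested fell, summed to between 59.8 and 116 CPM in scramble and between 3.92 and 57.2 CPM in Klf5 siRNA embryos, without overlap. This list shares Eomes with the trophectoderm list and Foxa2 with the primitive endoderm list. In embryos 5 of its 8 genes had too few counts to be tested. T, also in it, had 1 count in scramble embryo 4 and 4 and 10 counts in Klf5 siRNA embryos 2 and 6. The sum is therefore no separate measure of mesendoderm. Fibroblast markers summed to at most 3.15 CPM in scramble and 23.0 CPM in Klf5 siRNA embryos, with Lum at 0 in all embryos and Thy1, the 1 tested, higher with Klf5 siRNA (edgeR adjusted p = 0.00621). The part of these cell types in the levels of the 10 genes was not tested in embryos.

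Cdx1, the gene called in ESCs, was low in embryos and did not differ between the groups beyond their spread. It had a count in 8 of 10 scramble embryos, at 0 to 2.41 CPM with a median of 1.43, and in 3 of 6 Klf5 siRNA embryos, which held 0, 1.31, 2.12, 0, 0 and 5.96 CPM (log2 fold change 0.29 ± 1.15 SE, edgeR adjusted p = 0.891). The direction turned without Klf5 siRNA 6 (−0.88) and in limma voom (−1.21). Its relative Cdx2, which is also among the trophectoderm markers, fell from 14.8 to 132 CPM in scramble embryos to 0.364 to 18.1 CPM in Klf5 siRNA embryos (log2 fold change −2.44, adjusted p = 0.0196). Klf5 siRNA embryos 2 and 4 had the least Klf5 transcript (111 and 80.8 CPM). Without them the Cdx2 call was lost (log2 fold change −1.89, adjusted p = 0.0503). The difference between the fold changes of the Cdx genes was not tested.

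Znrf3 was counted in every embryo and had the smallest SD relative to its mean of the 6 tested genes in both groups. It ranged from 2.68 to 10.3 CPM (median 5.58) in scramble embryos and was at 5.41, 5.61, 4.93, 10.1, 7.13 and 3.04 CPM in Klf5 siRNA embryos 1 to 6 (log2 fold change 0.07 ± 0.36 SE, edgeR adjusted p = 0.913). Its relative Rnf43, by contrast, was counted in 1 scramble embryo (9 counts in embryo 4) and 1 Klf5 siRNA embryo (1 count in embryo 6). Tcf7, the leading gene of the list in ESCs, held 0.161 to 2.71 CPM in scramble embryos (median 0.650) and 3.78, 8.66, 1.17, 0, 0.606 and 0 CPM in Klf5 siRNA embryos (log2 fold change 1.55 ± 0.97 SE, adjusted p = 0.276). The log2 fold change was 0.46 without Klf5 siRNA 2 and −0.44 in limma voom. The Klf5 siRNA group thus held both the highest and the lowest embryos. Lef1 held 0.242 to 0.855 CPM (median 0.397) against 0.280 to 1.46 CPM (adjusted p = 0.563).

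The remaining feedback genes and Sp5 were absent from most embryos. Notum had no count in any of the 16, which allows at most 0.204 CPM on the unscaled total of the shallowest library. Sp5 was counted in 1 embryo, Klf5 siRNA 4, with 72 counts or 4.03 CPM. Nkd1 was counted in 2 of 10 scramble embryos (20 and 5 counts) and 3 of 6 Klf5 siRNA embryos (42, 14 and 7 counts). These genes had too few counts to be tested, and no fold is given.

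**Figure D4:**
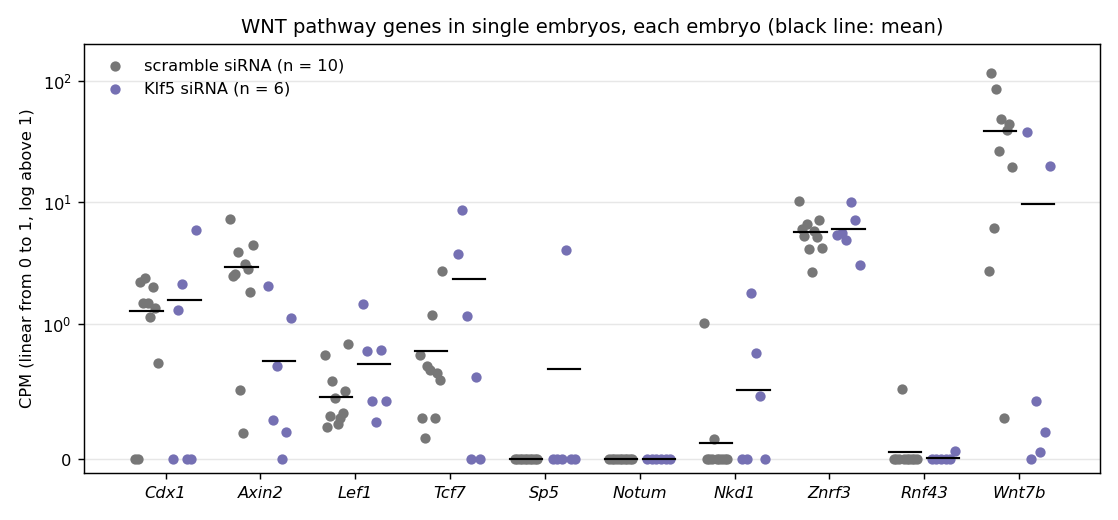
CPM of each gene (vertical axis, linear from 0 to 1 and logarithmic above 1) in the 10 scramble and 6 Klf5 siRNA embryos; dots are embryos and black lines are means. The groups overlap for every gene, 4 of the 6 Klf5 siRNA embryos lie near 0 for Wnt7b, and Notum is at 0 throughout.

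Of the other pathway genes 56 were tested in embryos, of which 1 rose and 4 fell, beside 12.0% of all genes called higher and 7.74% lower. The median log2 fold change was −0.41 beside −0.01 over all genes. Ryk, a WNT co-receptor gene and the 1 call among 11 tested genes for receptors and R-spondins, fell from 34.9 to 68.5 CPM in scramble embryos to 14.9 to 27.4 CPM in Klf5 siRNA embryos (log2 fold change −1.27, edgeR adjusted p = 0.00123). Csnk1a1, encoding the casein kinase that primes beta-catenin for degradation, fell from 107 to 198 CPM to 44.0 to 79.1 CPM (−1.11, adjusted p = 0.00115), 1 of 17 cytoplasmic components. For both genes the groups did not overlap, and each call held in all 27 alternatives. Ctbp2, a nuclear co-repressor gene and the 1 call among 10 nuclear factors, fell as well (−1.47, adjusted p = 0.00696). Its call was lost with the mitochondrial percent as a covariate (−0.88, adjusted p = 0.203), and that percent differed between the groups. Among 7 further targets Cdx2 fell and Ascl2, an imprinted trophoblast factor gene, rose (2.93, adjusted p = 0.00469). Ascl2 missed the threshold without Klf5 siRNA embryos 2 and 4, those with the least Klf5 transcript (1.95, adjusted p = 0.0766). None passed among 5 tested genes for ligands and secretion or 6 inhibitors. Wls, the carrier that brings WNT proteins to the cell surface, came nearest in the first (0.701 to 37.7 CPM against 0 to 5.04 CPM, adjusted p = 0.0548), and Dkk1, a secreted antagonist, in the second (3.57 to 34.5 CPM against 0.172 to 119 CPM, adjusted p = 0.101). Wls passed in 7 of 27 alternatives, among them DESeq2 (−3.01, adjusted p = 0.00913) and a filter at 5 CPM (edgeR adjusted p = 0.0431). It also passed without scramble 8, 9 or 10 or Klf5 siRNA 4 (adjusted p from 0.0158 to 0.0491). Its log2 fold change of −2.97 became −1.13 (adjusted p = 0.585) with the mitochondrial percent as a covariate. Dkk1 passed without the embryo labelled Klf5 siRNA 1 (1.76 in place of 1.55, adjusted p = 0.0150), but its log2 fold change was 0.48 (adjusted p = 0.708) without Klf5 siRNA embryos 2 and 4 and 0.39 (adjusted p = 0.790) in limma voom.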

How the data were processed

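Estimated counts (expected counts) per Ensembl gene were used as the authors deposited them. The submitters' processing notes name kallisto 0.46 and the build mm10. The sources used here give neither annotation release nor how transcripts were summed to genes. Symbols, positions and the longest transcript of each gene (coding where one exists) came from GENCODE M21 (GRCm38, the assembly of mm10), which matched 29910 of 30265 genes.

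Counts were rounded to whole numbers. Genes kept by filterByExpr of edgeR 4.0.16 (lowest count 10) were scaled with TMM and fitted per experiment with robust quasi-likelihood tests, with Benjamini-Hochberg adjustment over all genes tested and a threshold of 0.05. SEs come from the F statistic. CPM use the scaled library sizes, except the limits for a count of 0, which use unscaled totals. The log2 CPM use a prior count of 2. ESC fits had 2 residual degrees of freedom. The fits were tested on simulated data. No 2 libraries of a group were copies of each other: their chi-square was at least 21.1 per degree of freedom. The members and lists were chosen with earlier results of these data known. All members were named, as were Klf5, up to 4 genes past the threshold per pathway list, and where none passed the gene with the smallest p, and the 5 genes best correlated with the member of highest level per length in scramble embryos. Some further genes (Cdx4, T, Ctnnb1 and the markers) were picked as related genes after their values were seen.

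Alternatives were RLE and upper quartile scaling, DESeq2 1.42.0, voom from limma 3.58.1, tests of all genes with a count, a minimum of 5 CPM, a length offset (lowess span 0.3), each library left out, the replicate number as a block and, in embryos, the mitochondrial percent as a covariate, without Klf5 siRNA embryos 2 and 4, and the 12 embryos of the block without it. A crossed block in ESCs was added after the data were seen.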

Additional observations from a re-analysis of the deposited data

Results flagged for a closer look

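Single embryos stood apart in 6 of 17 groups of values examined. The cut-offs flag about 1 in 20 groups of normally distributed values by chance. Many of the values here are 0, so that rate does not apply and no excess over it is read. In 3 of the groups all other embryos were at 0, and any count stands apart there. In Klf5 siRNA embryos the values that stood apart were Cdx1 in embryo 6 (5.96 CPM, next 2.12), Sp5 in embryo 4 (4.03 CPM, the others at 0) and Rnf43 in embryo 6 (0.0621 CPM, the others at 0). In scramble embryos they were Tcf7 in embryo 10 (2.71 CPM, next 1.18), Nkd1 in embryo 1 (1.03 CPM, next 0.151) and Rnf43 in embryo 4 (0.519 CPM, the others at 0). The Rnf43 value of 0.0621 CPM is a single count.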

How the results depend on the processing

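In ESCs 1 of the 10 genes passed in the reported fit, 4 in DESeq2 (Cdx1, Axin2, Rnf43 and Wnt7b), 2 with a filter at 5 CPM (Cdx1 and Wnt7b) and between 0 (without GFP 1) and 5 (without Klf5 2) with a library left out. Of the other pathway genes 4 passed, against 12 in DESeq2, 2 in limma voom, and between 0 (without GFP 1 or GFP 2) and 11 (without Klf5 2). Cdx1 kept its direction in all 13 alternatives and its call in 12. In embryos 0 of 10 passed, against 1 in DESeq2 (Axin2) and 1 with no filter, which was Sp5 (log2 fold change 6.70, adjusted p = 0.0271) through its single embryo with counts. Of the other pathway genes 5 passed, against 9 in DESeq2, 8 in limma voom, 10 with no filter, 10 with the mitochondrial percent as a covariate, and 5 to 7 with an embryo left out. The median of the tested members in embryos was 0.18, and −0.35 without Klf5 siRNA 6, so no direction is read from it. In embryos log2 fold changes followed transcript length (Spearman −0.31 across 12292 genes, which are not independent), with a median of 0.90 in the decile of shortest transcripts and −0.34 in that of the longest; with the length offset Axin2 lay at −1.67. The causes were not tested. In embryos, levels under 0.120 to 0.204 CPM on unscaled totals cannot be told from 0 at this depth, and on scaled sizes these limits shift.

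Same-numbered embryos showed no clear pairing: their deviations correlated between −0.13 and 0.11, and 1 of 6 Klf5 siRNA embryos correlated best with its own number. In ESCs the correlation was −0.11 for both numbers. With 2 libraries in each group these values are bound to be equal, so they cannot show whether the samples were paired. With the replicate block, 1 other pathway gene passed in ESCs, Tbx3, and Cdx1 kept its call. A crossed pairing in ESCs, chosen after the data were seen, gave 5 of the 10 genes and 11 other pathway genes.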

Other observations

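Wnt7b had the highest level per transcript length in scramble embryos, and the genes whose log2 CPM followed it most closely over these 10 embryos were Tmc4 (Pearson 0.93), Setd2 (0.92), Hadha (0.88), Zkscan5 (0.88) and Il3ra (0.87). They are the top of the correlations with all other tested genes, over 10 libraries that share depth and make-up, given as a description. In Klf5 siRNA embryos the fitted log2 fold change of Wnt7b was −1.99 (edgeR adjusted p = 0.264), and that of each of these 5 genes was above 0. Setd2, a histone methyltransferase gene, passed (1.94, adjusted p = 0.00590). The others did not: Il3ra was at 1.64 (adjusted p = 0.354), Tmc4 at 0.69 (0.627), Hadha at 0.23 (0.526) and Zkscan5 at 0.06 (0.975).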
